A study of Mus musculus with 2 samples.

Results

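The genes described here encode 9 receptors, or receptor chains, through which myeloid progenitors sense growth factors and inflammatory cytokines. They are Csf3r, Csf2ra, Csf2rb, Csf2rb2, Il3ra, Il6ra, Il6st, Ifngr1 and Il1r1, taken as the entries with these symbols among the 24421 symbols in the deposited tables. All 9 were above 0 in both libraries. RNA was sequenced in bulk from flow-sorted GMPs, the marrow progenitors that give rise to granulocytes and monocytes, of female mice. One group, NTB-GMP (1 library), came from non-tumor-bearing (NTB) controls, and the other, 4T1-GMP (1 library), came from mice in which 4T1 cells, a line of mouse mammary carcinoma, had formed tumors at the orthotopic site. By the sample labels both groups shared an F1 background that was semi-syngeneic for H-2b/d, whereas the methods of the study place 4T1 tumors in BALB/c mice. The methods of the study give 1 age range, that of young adult mice, for all experiments, and the age, the stage of the tumors and the number of animals behind each of these libraries are not given separately in the sources used here. With 1 library in each group there is no replicate check, so the values compare these libraries and not the conditions, and no p-value can be given. Intervals are at the 95% level and cover counting error alone, since amplified reads lack molecular identifiers.

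Most of these receptors have no enzyme of their own and signal through JAK kinases bound to their inner tails, which phosphorylate STAT transcription factors. G-CSF, the ligand of Csf3r, is the main driver of granulocyte production, while GM-CSF and IL-3 act on a wider range of myeloid cells through private alpha chains and a shared beta chain. IL-6 signals through gp130, and IL-1 through the adaptor MyD88 rather than through a STAT.

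The unit of level was RPKM, reads scaled to gene length and to library size, as deposited by the authors. The library sizes behind these values came to 10180365 reads for NTB-GMP and, at 2.95 times the depth, 30016263 for 4T1-GMP, so intervals are wider in NTB-GMP. Read numbers given for single genes are the smallest that fit the RPKM, so they are lower bounds. Rn45s, the ribosomal RNA precursor, took up 17.0% of all counted NTB-GMP reads and 6.98% of those of 4T1-GMP, and leaving it out would shift every log2 ratio of RPKM by -0.16. Ratios of 4T1-GMP over NTB-GMP used log2(RPKM + 0.1), a scale on which low genes appear to differ by less than they do, and intervals beside them belong to the ratio of the RPKM themselves. The 10378 genes whose RPKM averaged 1 or more over both libraries were compared, and their median log2 ratio was 0.05.

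The receptors spanned a wide range of levels. Ifngr1 was the highest and Il1r1 the lowest in both libraries, and the highest exceeded the lowest 122-fold in NTB-GMP and 320-fold in 4T1-GMP. In NTB-GMP the order of RPKM from high to low was Ifngr1, Csf3r, Csf2rb, Csf2ra, Il3ra, Il6st, Il6ra, Csf2rb2 and Il1r1. The counting intervals of Csf2rb and Csf2ra overlapped there, as did those of Il3ra and Il6st and those of Il6st and Il6ra. In 4T1-GMP the first 4 places were the same, followed by Il6ra, Il3ra and Il6st, with overlapping intervals between neighbors among those 3, and then by Csf2rb2 and Il1r1. The 4 receptors at the top of the order were all higher in 4T1-GMP, and the 5 below them were all lower there, as the plot of RPKM by receptor shows. In bulk RNA, fewer cells of a type and less RNA per cell cannot be told apart. RPKM are per length, and the smallest gene lengths that fit them ran from 1394 bases for Il3ra to 5452 bases for Il6st. These were from 38.7% (Il6ra) to 112% (Csf3r) of the annotated exon length of the gene. The order across receptors thus also rests on gene lengths that are not given. The summed RPKM of the 9 receptors was 289 in NTB-GMP and 414 in 4T1-GMP, of which Ifngr1 alone made up 52.9% and 52.7%.

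**Figure D1:**
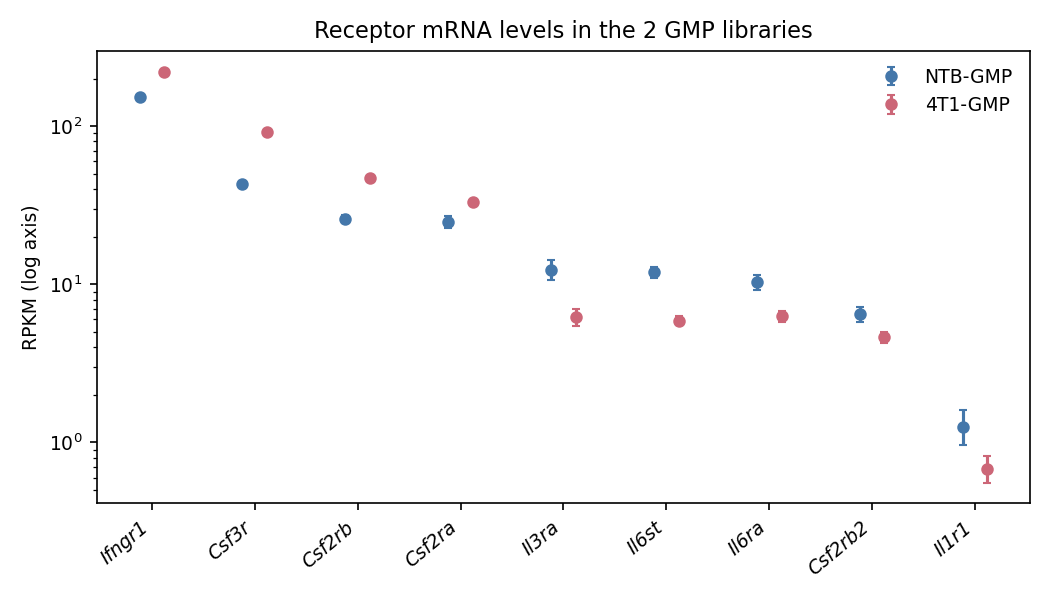
RPKM (log axis) of the 9 receptors in NTB-GMP (blue) and 4T1-GMP (red), 1 library each, ordered by RPKM in NTB-GMP. Bars give the exact 95% Poisson interval on the reads, and some are smaller than the points. Ifngr1, Csf3r, Csf2rb and Csf2ra were higher in 4T1-GMP, from 33.2 RPKM for Csf2ra to 218 RPKM for Ifngr1, and the other 5 were lower.

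Csf3r, which encodes the G-CSF receptor, had the largest positive log2 ratio of the 9. Its level was 43.2 RPKM in NTB-GMP (interval 41.2 to 45.3, from 1780 reads) and 92.2 RPKM in 4T1-GMP (interval 90.5 to 93.9, from 11199 reads). The intervals of the libraries were far apart, and the log2 ratio was 1.09 (interval 1.02 to 1.17), or 2.13-fold in RPKM. This ratio lay above that of 97.2% of all compared genes. Csf3r was already among the better expressed genes of NTB-GMP, above 90.2% of the genes that were not at 0, and above 95.1% of those in 4T1-GMP. Its share of the summed RPKM of the 9 receptors was 14.95% in NTB-GMP and 22.3% in 4T1-GMP. In the GENCODE M21 annotation of GRCm38 the gene lies on the forward strand at chr4:126024550-126044440 with 17 merged exons, and 10.7% of the 50-base words in its transcripts also occur in transcripts of other genes, most of them in AC105061.2 (8.84%). The genes nearest to Csf3r in log2 ratio and log2 mean RPKM over the 2 libraries were Agps, Creld2 and Mpc1, at distances of 0.14 to 0.18 log2 units.

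Csf2rb encodes the common beta chain, which carries the signal of the receptors for GM-CSF, IL-3 and IL-5. It stood at 26.0 RPKM in NTB-GMP (interval 24.5 to 27.4, from 1259 reads) and at 46.7 RPKM in 4T1-GMP (interval 45.6 to 47.8, from 6681 reads). The log2 ratio was 0.85 (interval 0.76 to 0.94), above that of 95.6% of compared genes and short of 2-fold. Csf2ra encodes the alpha chain that binds GM-CSF, and it too was higher in 4T1-GMP, by less. Its values were 24.9 RPKM in NTB-GMP (interval 22.7 to 27.2, from 468 reads) and 33.2 RPKM in 4T1-GMP (interval 31.7 to 34.8, from 1844 reads), with a log2 ratio of 0.42 (interval 0.27 to 0.57).

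Il3ra encodes the alpha chain that binds IL-3 and went the other way from the beta chain it pairs with. It had 12.3 RPKM in NTB-GMP (interval 10.6 to 14.3, from 175 reads) and 6.19 RPKM in 4T1-GMP (interval 5.46 to 6.99, from 259 reads), a log2 ratio of -0.98 (interval -1.28 to -0.71). The intervals of the libraries did not overlap, and 5.06% of compared genes had a lower ratio. Among genes not at 0, Il3ra went from above 63.1% of them in NTB-GMP to above 48.3% in 4T1-GMP. The alpha chain genes lie apart from the beta chain genes, Csf2ra on the reverse strand at chr19:61223957-61228429 and Il3ra on the forward strand at chr14:14346275-14356011. Exons of Il3ra overlap those of the antisense gene Gm48860 over 46 bases, and the sources used here do not say whether the libraries kept the strand.

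Csf2rb2 is the second beta chain gene of the mouse, and its product pairs with the IL-3 alpha chain alone. The 2 genes are neighbors in GRCm38, Csf2rb2 on the reverse strand at chr15:78282507-78305721 and Csf2rb on the forward strand at chr15:78325752-78353847, with 20030 bases and no annotated gene between them. Their coding sequences have 2688 bases in Csf2rb and 2634 in Csf2rb2, and 95.2% of the 2628 aligned bases were identical, with a longest identical run of 242 bases. Of the 50-base words in their transcripts, 12.3% in Csf2rb and 18.4% in Csf2rb2 were shared between the pair. A read that lies wholly within such a stretch cannot be assigned to one gene. Both levels are thus uncertain, to an extent that depends on the length of the reads. The 60-base coding windows in which the genes differ most, at 13 positions, are shown because reads there separate the pair, with positions counted from the first base of the start codon (304 to 363 in Csf2rb and 307 to 366 in Csf2rb2), with differing bases in capitals.
Csf2rb: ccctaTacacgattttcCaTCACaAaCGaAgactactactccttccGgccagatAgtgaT
Csf2rb2: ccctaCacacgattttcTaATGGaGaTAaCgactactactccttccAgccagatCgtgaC

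Despite this likeness, the 2 beta chain genes had log2 ratios of opposite sign. Csf2rb2 had 6.45 RPKM in NTB-GMP (interval 5.75 to 7.20, from 311 reads) and 4.63 RPKM in 4T1-GMP (interval 4.29 to 5.0, from 659 reads). Its log2 ratio was -0.47 (interval -0.67 to -0.28), a lower level in 4T1-GMP by 1.39-fold. How the reads of shared stretches were divided between the pair was not tested.

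Both chains of the IL-6 receptor were lower in 4T1-GMP. Il6ra, which encodes the chain that binds IL-6, had 10.3 RPKM in NTB-GMP (interval 9.23 to 11.4, from 350 reads) and 6.28 RPKM in 4T1-GMP (interval 5.80 to 6.79, from 630 reads), a log2 ratio of -0.70 (interval -0.90 to -0.52). Il6st encodes gp130, the signaling chain that the receptors for IL-6, IL-11, LIF and oncostatin M have in common. It had 11.9 RPKM in NTB-GMP (interval 11.0 to 12.8, from 660 reads) and 5.90 RPKM in 4T1-GMP (interval 5.53 to 6.28, from 965 reads). The log2 ratio of Il6st was -0.9997 (interval -1.16 to -0.87), the lowest of the 9, and 4.92% of compared genes had a lower ratio. Its level in 4T1-GMP was that of a gene near the middle, above 47.5% of genes not at 0, against 62.2% in NTB-GMP. The gene nearest to Il6st in log2 ratio and log2 mean RPKM, out of all compared genes, was Il3ra, at a distance of 0.061 log2 units, followed by Fam129a and Gng2. Il6st lies on the forward strand at chr13:112464070-112510086 and Il6ra on the reverse strand at chr3:89864059-89913196, where its exons overlap those of the antisense gene Gm42809 over 242 bases.

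Ifngr1, the chain that binds interferon gamma, was the most abundant cytokine receptor mRNA examined. It had 153 RPKM in NTB-GMP (interval 148 to 158, from 3264 reads) and 218 RPKM in 4T1-GMP (interval 215 to 222, from 13758 reads), a log2 ratio of 0.52 (interval 0.46 to 0.57). The gene lies at chr10:19591949-19610229 on the forward strand. Il1r1, the signaling receptor for IL-1 at chr1:40225080-40317257, was low, above 26.8% of the genes not at 0 in NTB-GMP and 24.9% of those in 4T1-GMP. It had 1.25 RPKM in NTB-GMP (interval 0.962 to 1.59, from 64 reads) and 0.682 RPKM in 4T1-GMP (interval 0.556 to 0.827, from 103 reads). The mean of 0.965 RPKM was under the minimum of 1, so Il1r1 was left out of all counts of compared genes, and its log2 ratio of -0.79 (interval -1.34 to -0.40) is given as a value only.

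Of the 8 receptors that passed the minimum mean RPKM of 1, 4 were higher in 4T1-GMP, against 54.7% of all compared genes, or 39.2% of them without Rn45s in the library sizes. Only Csf3r was at least 2-fold higher, against 3.25% of all compared genes, and none of the 8 was at least 2-fold lower, against 4.92% of all. On the scale with 0.1 added, Il6st missed the 2-fold line in the fourth decimal, while in RPKM themselves it was 2.02-fold lower. Il3ra missed the line by little and was 1.99-fold lower in RPKM. The median log2 ratio of the 8 was -0.03, beside 0.05 for all compared genes, with a range from -0.9997 to 1.09. Every one of the 9 counting intervals left out 0. The share of all compared genes for which this held was not computed, so it does not set the receptors apart. The counts at 2-fold depended on the scaling and, for Il6st, on the value added to the RPKM. Without Rn45s in the library sizes Csf3r had a log2 ratio of 0.93, while Il3ra and Il6st passed 2-fold lower. The sign of each receptor's ratio was the same under all 6 other settings tried, which the plot of log2 ratios by setting shows for 3 of them.

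**Figure D2:**
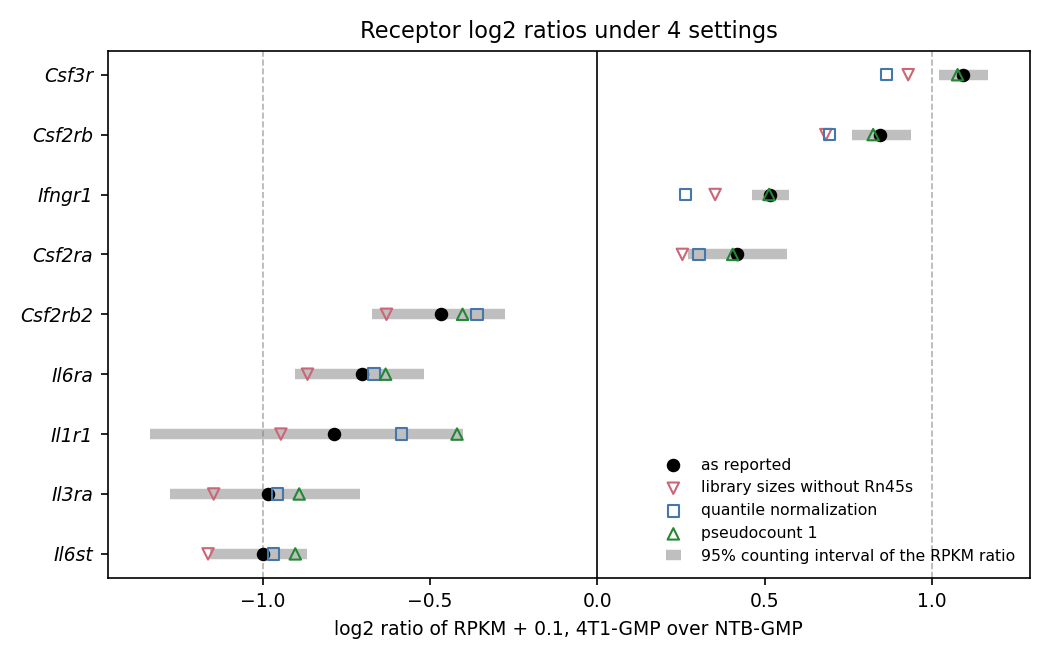
Log2 ratio of RPKM + 0.1, 4T1-GMP over NTB-GMP, for the 9 receptors as reported (black) and under 3 other settings (open symbols), with gray bars for the 95% counting interval of the RPKM ratio and dashed lines at 2-fold. Csf3r lies at 1.09 as reported and at 0.86 after quantile normalization, and no receptor crosses 0 in any setting shown.

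Ratios between receptors within a library do not depend on the library size. They do depend on the gene lengths behind the RPKM, which are not given and which the intervals do not cover. The private and shared chains of the GM-CSF receptor were close to level in NTB-GMP, with 0.958 Csf2ra for each Csf2rb in RPKM (interval 0.860 to 1.07), and alpha was below beta in 4T1-GMP, at 0.711 (interval 0.675 to 0.749). The IL-3 pair parted further. Il3ra over Csf2rb was 0.475 in NTB-GMP (interval 0.403 to 0.557) and 0.133 in 4T1-GMP (interval 0.117 to 0.150), a 3.59-fold lower ratio. Il5ra, the alpha chain for IL-5 that uses the same beta chain, had a ratio to Csf2rb of 0.0703 in NTB-GMP and 0.0064 in 4T1-GMP. Csf2rb2 over Csf2rb was 0.248 and 0.0992. The proportions of the alpha chains to each other also differed between the libraries, with Csf2ra exceeding Il3ra 2.02-fold in NTB-GMP and 5.37-fold in 4T1-GMP.

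The chains of the IL-6 receptor kept more similar proportions. Il6ra over Il6st was 0.865 in NTB-GMP (interval 0.757 to 0.986) and 1.06 in 4T1-GMP (interval 0.961 to 1.18), a 1.23-fold higher ratio. These intervals overlapped, which does not show that the ratios were equal. No interval was computed for the change of a ratio between the libraries. The chains of the interferon gamma receptor were far from equal in both libraries. Ifngr1 over Ifngr2 was 15.9 (interval 13.8 to 18.4) and 19.7 (interval 18.2 to 21.3), a 1.24-fold higher ratio with intervals that overlapped narrowly. Ifngr2 itself had 9.63 and 11.1 RPKM, a log2 ratio of 0.20 whose interval of -0.02 to 0.44 included 0. For IL-1, Il1r1 over its accessory chain Il1rap was 0.299 in NTB-GMP and 0.101 in 4T1-GMP. Across pathways, Csf3r over Il6st was 3.63 in NTB-GMP (interval 3.32 to 3.98) and 15.6 in 4T1-GMP (interval 14.6 to 16.7), or 4.30-fold. This was the widest shift among computed pairs of the 9 receptors, as it must be for those with the largest and the lowest log2 ratio. Csf3r over Csf2ra was 1.74 and 2.77. Csf3r over Csf1r, the M-CSF receptor of the monocyte lineage, was 3.56 and 11.7.

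**Figure D3:**
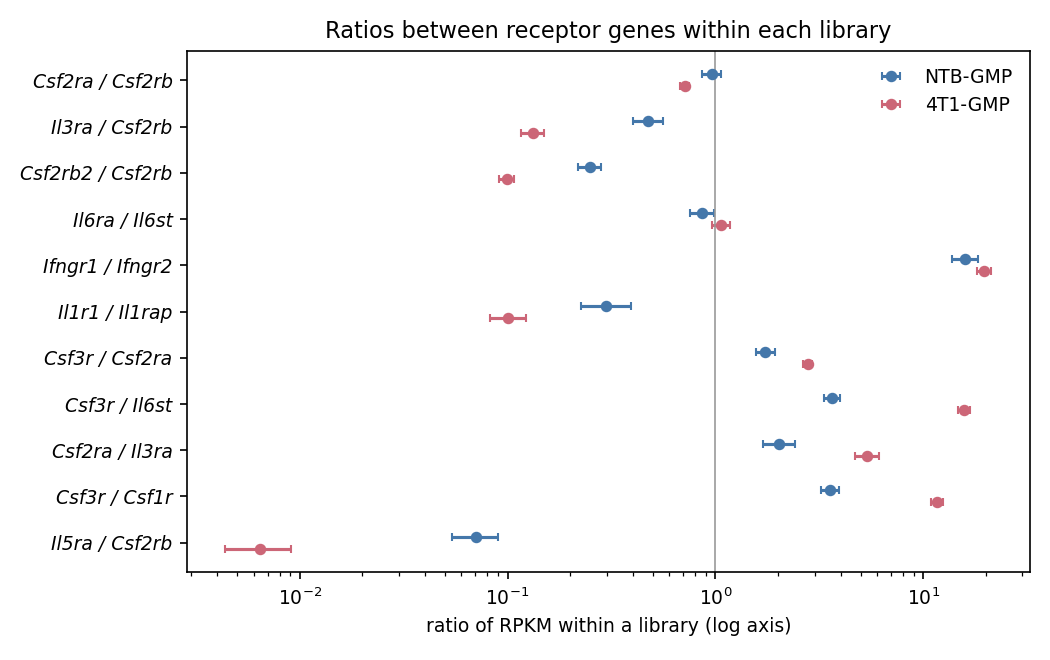
Ratio of RPKM between the genes of a pair within NTB-GMP (blue) and within 4T1-GMP (red) on a log axis, with bars for the 95% counting interval. Il3ra over Csf2rb lies at 0.475 in NTB-GMP and 0.133 in 4T1-GMP, and Il6ra over Il6st lies at 0.865 and 1.06.

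The promoters of the receptors at the ends of the range, and of the one with a STAT motif, are shown for the letters they hold. RefSeq windows from 250 bases before to 50 after the start of the gene (GRCm38.p6) were found for 8 of the 9 receptors by symbol. Capitals mark matches, on either strand, to AGGAAG, the core bound by ETS factors, to GAGGAAGT, a PU.1 site that contains it, to TTCNNNGAA, the STAT site, and to TTGCNNAA, a C/EBP site. The Csf3r window spans chr4:126024409-126024708 on the forward strand, that of Il6st chr13:112463820-112464119 on the forward strand and that of Csf2rb2 chr15:78305672-78305971 on the reverse strand.
Csf3r: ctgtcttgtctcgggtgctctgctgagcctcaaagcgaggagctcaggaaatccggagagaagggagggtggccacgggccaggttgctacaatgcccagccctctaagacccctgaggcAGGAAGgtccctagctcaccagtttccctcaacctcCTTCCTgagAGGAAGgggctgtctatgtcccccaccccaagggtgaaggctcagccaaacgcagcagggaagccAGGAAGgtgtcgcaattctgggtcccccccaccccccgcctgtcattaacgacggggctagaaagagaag
Il6st: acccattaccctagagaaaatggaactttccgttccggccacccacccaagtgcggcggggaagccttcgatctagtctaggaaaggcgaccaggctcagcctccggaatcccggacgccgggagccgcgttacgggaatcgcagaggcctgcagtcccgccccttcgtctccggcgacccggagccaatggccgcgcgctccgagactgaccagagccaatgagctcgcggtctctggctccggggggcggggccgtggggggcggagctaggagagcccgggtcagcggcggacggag
Csf2rb2: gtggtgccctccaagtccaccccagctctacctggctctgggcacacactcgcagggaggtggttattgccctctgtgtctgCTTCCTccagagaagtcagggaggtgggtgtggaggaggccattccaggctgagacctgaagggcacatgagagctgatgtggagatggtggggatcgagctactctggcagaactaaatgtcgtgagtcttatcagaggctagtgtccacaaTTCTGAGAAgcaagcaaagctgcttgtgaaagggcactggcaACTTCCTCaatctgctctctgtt

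The Csf3r window held 4 matches to AGGAAG and none to the other motifs, the Il6st window held none of the 4 motifs, and the Csf2rb2 window held 1 match to TTCNNNGAA, 1 to GAGGAAGT and 2 to AGGAAG. The ETS core was found in 5 of the 8 receptor genes (Csf3r, Csf2ra, Csf2rb2, Il3ra and Il6ra), against 38.4% of the 27025 genes in the RefSeq table. Of all genes there, 9.55% held TTCNNNGAA, 3.69% GAGGAAGT and 12.2% TTGCNNAA, the last also found at Il3ra and Il1r1. The genes with this core had log2 ratios of both signs, from -0.98 for Il3ra to 1.09 for Csf3r. A match is a description of the letters in the window.

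The 9 receptors were set beside 41 other hematopoietic and inflammatory cytokine receptors, of which 27 passed the minimum and 3 were at 0 in both libraries. Of these 27, 10 were higher and 17 lower in 4T1-GMP, 5 at least 2-fold higher and 4 at least 2-fold lower, with a median log2 ratio of -0.22. Over the 35 receptors compared in all, Ifngr1 ranked first in both libraries. Csf3r ranked 3 in NTB-GMP, behind Kit, and 2 in 4T1-GMP, ahead of it. Csf2rb ranked 6 and then 4, while Il3ra ranked 13 and then 26 and Il6st 16 and then 27. Kit, the stem cell factor receptor, had 78.5 RPKM in NTB-GMP against 49.1 in 4T1-GMP. The scatter of receptor levels shows that most receptors lay within 2-fold of the diagonal and that the widest departures were those of Il1r2, Il13ra1 and Flt3, outside the 9.

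The other receptors with the largest positive ratios were Il1r2, Il13ra1 and Il4ra. Il1r2, the decoy receptor that binds IL-1 without signaling, had 0.146 RPKM in NTB-GMP against 9.62 in 4T1-GMP, a log2 ratio of 5.30 (interval 3.54 to 11.35). At least 1 read lay behind its NTB-GMP value, so the size of this ratio is loosely known. Il13ra1, the IL-13 chain, had 0.0529 and 3.16 RPKM, and Il4ra, the IL-4 chain it pairs with, had 6.11 RPKM in NTB-GMP and 16.4 in 4T1-GMP (log2 ratio 1.41, interval 1.25 to 1.59). The largest negative ratios were those of Flt3, the FLT3 ligand receptor of multipotent and dendritic progenitors, from 12.6 to 2.34 RPKM (log2 ratio -2.38), Il5ra, from 1.82 to 0.300 RPKM (-2.27), and Il1rl1, the IL-33 receptor of basophils and mast cells, from 4.36 to 1.14 RPKM (-1.85). Csf1r stood at 12.1 and 7.89 RPKM (log2 ratio -0.62, interval -0.78 to -0.46).

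**Figure D4:**
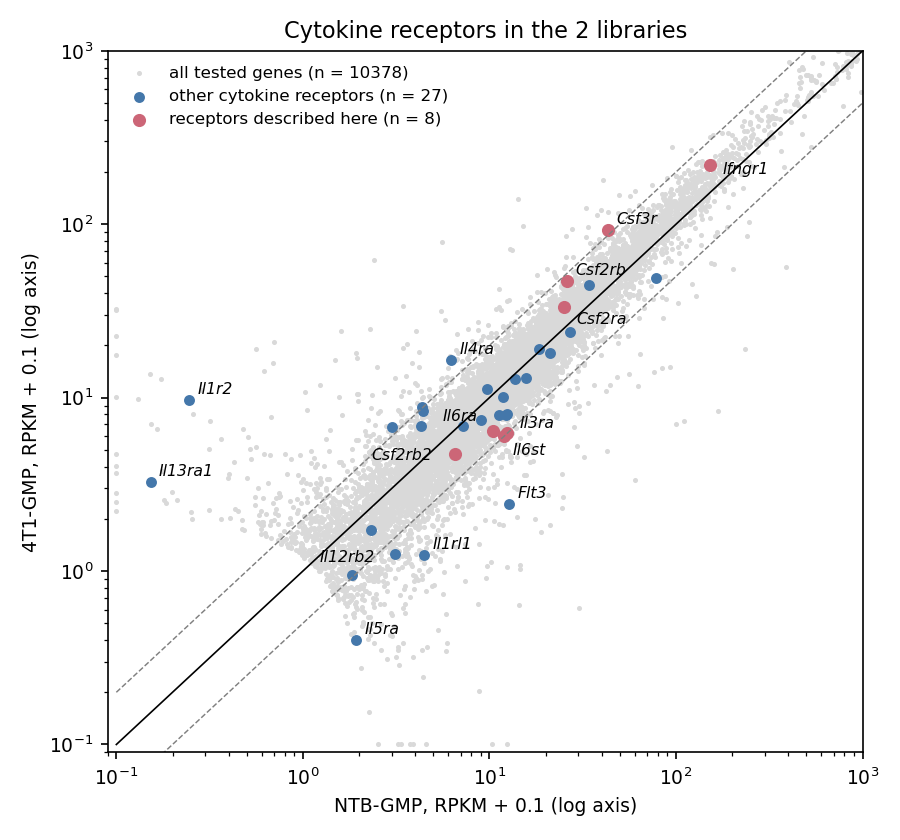
RPKM + 0.1 in NTB-GMP (x, log axis) against 4T1-GMP (y, log axis) for all 10378 compared genes (gray), 27 other cytokine receptors (blue) and the 8 compared receptors described here (red), with a solid line for equality and dashed lines for 2-fold. The highest genes lie outside the axes. Csf3r sits just above the upper 2-fold line at 43.2 and 92.2 RPKM, Il6st and Il3ra lie on the lower one, and Il1r2 and Il13ra1 lie far above it from levels near 0.

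Of 12 genes for ligands of these receptors, 7 were listed at 0 in both libraries, namely Csf3 (G-CSF), Csf2 (GM-CSF), Il3, Il5, Ifng, Il1a and Lif. Il1b, which encodes IL-1 beta, was the ligand gene with the largest ratio, at 0.0740 RPKM in NTB-GMP against 12.8 in 4T1-GMP, a log2 ratio of 6.21 (interval 4.95 to 12.74) from at least 1 and at least 509 reads. The IL-1 receptor Il1r1 was low in the same libraries. Its partners had 4.18 RPKM in NTB-GMP against 6.74 in 4T1-GMP for Il1rap (log2 ratio 0.68, interval 0.53 to 0.86) and 9.69 and 26.1 RPKM for Myd88, the adaptor of IL-1 and Toll-like receptors (1.42, interval 1.21 to 1.65). Il6 had 1.81 and 0.184 RPKM, and Osm, oncostatin M, had 1.55 RPKM in both.

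The kinases and STATs that these receptors use mostly lay within 2-fold between the libraries. All 23 signal transducer genes on the list were compared, of which 11 were higher and 12 lower in 4T1-GMP, 2 of them at least 2-fold higher and 0 at least 2-fold lower, with a median log2 ratio of -0.01, and without Rn45s the split was 7 higher and 16 lower. Jak2, the kinase of the G-CSF, GM-CSF and IL-3 receptors, had 19.9 RPKM in NTB-GMP against 17.3 in 4T1-GMP (log2 ratio -0.20, interval -0.30 to -0.09), and Jak1 38.9 and 35.3 RPKM. Stat3, the main STAT of the G-CSF and IL-6 receptors, had 30.4 and 40.8 RPKM (0.42, interval 0.34 to 0.51). Stat5b, a STAT of the GM-CSF and IL-3 receptors, had 23.8 and 17.5 RPKM (-0.45, interval -0.54 to -0.35), while Stat5a had a log2 ratio of -0.30 whose interval of -0.75 to 0.16 included 0. Myd88 had the largest positive ratio of the list, and Lyn, a Src family kinase, had one of 0.44. The largest negative ratios after Stat5b were those of the adaptor gene Grb2 (-0.37) and of Sos1 (-0.36), which encodes a Ras exchange factor.

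Among 17 feedback and decoy regulators, 12 were compared, with 6 higher, 6 lower and a median log2 ratio of 0.07. Socs3, the inhibitor that binds the G-CSF receptor and gp130, had 0.216 RPKM in NTB-GMP against 7.19 in 4T1-GMP (log2 ratio 4.53, interval 2.54 to 10.37), from at least 1 and at least 98 reads. Cish, a STAT5 target and inhibitor, stayed under the minimum with 0.636 and 0.462 RPKM. Ptpn2, a phosphatase of JAKs and STATs, had a log2 ratio of 0.50. Adam17, the protease that sheds the IL-6 receptor from the cell surface, had 20.4 and 12.4 RPKM (-0.71, interval -0.83 to -0.60), followed by Pias3 (-0.55) and Irak3 (-0.26).

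Target genes of the pathways were read from lists written for this purpose. Of 19 STAT3 and STAT5 target genes, 16 were compared, 12 of them higher and 4 lower in 4T1-GMP, with 5 at least 2-fold higher, 1 at least 2-fold lower and a median log2 ratio of 0.57. Socs3 and Il4ra, counted here, stand on the earlier lists too. The largest positive ratios after Socs3 were those of Id1 (1.92, from 2.21 to 8.63 RPKM) and Bcl3 (1.83, from 1.28 to 4.81 RPKM), and the largest negative ones those of Fos (-1.22, from 29.2 to 12.4 RPKM), Ccnd2 (-0.61) and Myc (-0.36, from 138 to 108 RPKM). Interferon gamma targets showed the opposite balance while Ifngr1 was higher. Of 21 such genes 14 were compared, 2 higher and 12 lower, with a median of -0.29. The lowest were Irf8, a transcription factor of the monocyte and dendritic lineages (-2.82, from 32.0 to 4.45 RPKM), and the guanylate-binding protein genes Gbp5 (-1.69) and Gbp2 (-0.89). Without Rn45s in the library sizes all 14 were lower. In that setting 10 STAT3 and STAT5 targets were higher and 6 lower, with 4 at least 2-fold higher and 1 at least 2-fold lower. Of all compared genes 54.7% were higher as reported and 39.2% without Rn45s. As reported, 3.25% of all compared genes were at least 2-fold higher and 4.92% at least 2-fold lower.

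Markers of cell types and stages differed along with the receptors. Kit, Flt3, Csf1r and Irf8 are on these lists as well as on those above. All 9 markers of GMPs were well expressed, with Mpo, Elane, Prtn3 and Ctsg the highest of them in both libraries. Of the 9, 6 were higher and 3 lower in 4T1-GMP. The lower ones were Cd34 (log2 ratio -1.37), Fcgr3 (-0.89) and Kit (-0.67), and the higher ones were led by Ms4a3 (1.35), Prtn3 (1.24) and Ctsg (1.11). Fcgr2b, unlike Fcgr3, was higher (0.45, with 47.3 RPKM in NTB-GMP and 64.6 in 4T1-GMP). All 12 markers on the neutrophil granule list were at least 2-fold higher in 4T1-GMP, and none of them was at 0. The list also holds genes for other than granule proteins (Ly6g, Cxcr2, S100a8 and S100a9). The summed level was 514 RPKM in NTB-GMP against 4072 in 4T1-GMP, there mostly from S100a8 (1594 RPKM) and S100a9 (1974 RPKM). The median log2 ratio was 3.001, led by Mmp9 (4.52), Mmp8 (4.51) and Retnlg (3.81). Of 13 monocyte and dendritic markers, 11 were compared, 10 of them lower, 1 higher and 8 at least 2-fold lower. The falls were led by the MHC class II genes H2-Aa (-3.52) and H2-Ab1 (-3.40) and by Ly86 (-3.18). The 1 higher marker, F13a1, was near level (0.02, with 49.1 RPKM in NTB-GMP and 49.6 in 4T1-GMP). This list had a summed level of 314 and 122 RPKM. For basophil and mast cell markers, which belong to cells that respond to IL-3, 7 of 8 were compared, all 7 were lower and 5 at least 2-fold lower, led by Gata2 (-2.50), Ms4a2 (-1.86) and Cma1 (-1.86), with a summed level of 458 and 189 RPKM. Their part in the levels of Csf3r, Il3ra and the other receptors was not tested.

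Markers of further cell types were mostly low. All 4 compared erythroid and megakaryocyte markers of 10 were at least 2-fold lower in 4T1-GMP, led by Klf1 (-2.42), with a summed level of 23.9 and 6.58 RPKM, and the globin genes Hba-a1 and Hbb-bs were listed at 0 in both. The 8 stem and early progenitor markers summed to 86.8 and 54.2 RPKM, with 3 compared and all 3 lower (Meis1 -1.83, Hlf -0.88 and Cd48 -0.47). Of 10 lymphocyte markers only Cd79b (14.7 and 12.4 RPKM) and Nkg7 (190 and 337 RPKM) were compared, while Pax5, Cd3e and Cd8a were at 0 in 1 library each. Of 6 epithelial markers for 4T1 cells, Krt19, Epcam and Krt14 were listed at 0 in both libraries, and Krt18 (12.8 and 8.90 RPKM) and Cdh1 (5.36 and 1.04 RPKM) were lower in 4T1-GMP. The plot of log2 ratios by list sets the spread of the 8 receptors, within about 2-fold either way, beside the wider shifts of the lineage markers.

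**Figure D5:**
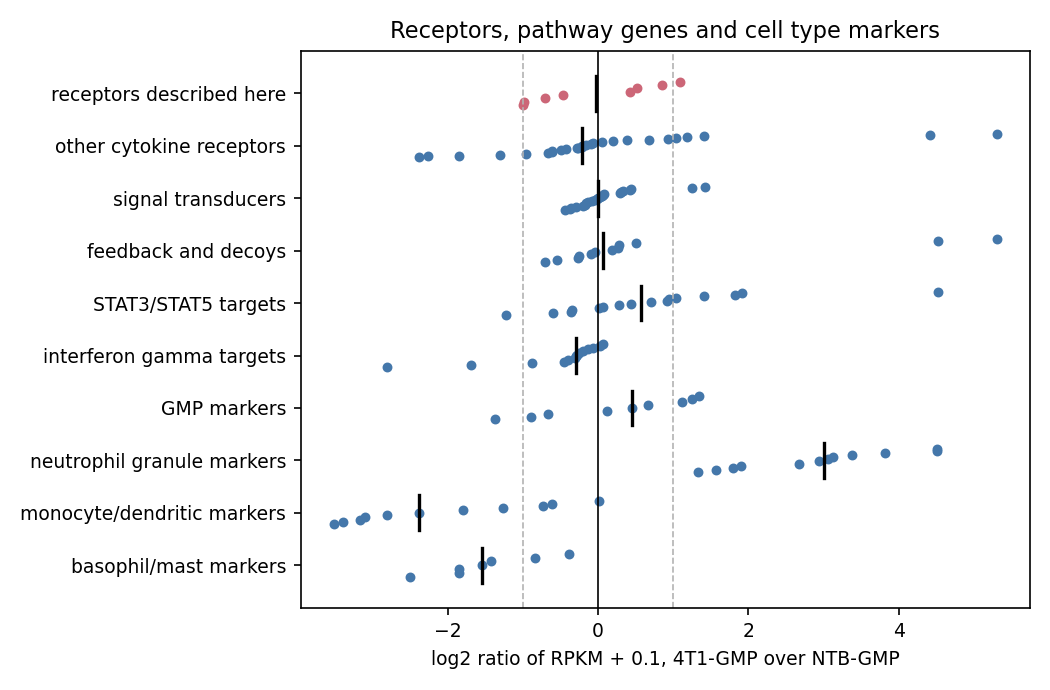
Log2 ratio of RPKM + 0.1, 4T1-GMP over NTB-GMP, for each compared gene of 10 lists (points), with a black bar at the median of the list and dashed lines at 2-fold. The receptors described here (red) run from -0.9997 to 1.09 around a median of -0.03. The neutrophil granule list has a median of 3.001 and the monocyte and dendritic list one of -2.38.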

How the data were processed

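Bulk RNA-seq of GMPs gave 1 RPKM value per gene symbol and library, as deposited by the authors. The submitters' processing notes name CASAVA 1.8.2, cutadapt 1.2.1, TopHat2 2.0.13, Picard 1.97, HTSeq 0.6.1 and edgeR 3.12.1 with build mm10, without roles. Gene lengths and strand setting are not given in the sources used here. RPKM rest on the reads counted in the library size, so Rn45s, the ribosomal RNA precursor, bears on every level.

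Whole reads and library sizes were recovered from ratios of the deposited RPKM for 99.9% of the symbols above 0 in both libraries, and the procedure was tested on simulated data. The recovered reads, those of the 9 receptors included, are the smallest that fit and so lower bounds. The intervals are therefore at least as wide as needed for counting error. Levels carry exact Poisson intervals and ratios Clopper-Pearson intervals, both at 95%. Ratios used a pseudocount of 0.1, a minimum mean RPKM of 1 and a 2-fold line. Alternatives were pseudocounts of 1 and 0.01, library sizes without Rn45s, centring on the median, quantile normalization, thinning of 4T1-GMP to the depth of NTB-GMP (median of 20 thinnings), all genes above 0 and a minimum mean RPKM of 5.

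The members and lists were chosen with earlier results of these data known. Genes named beyond the 9 were the 3 largest rises and falls of each list, direct partners, Csf1r, Flt3 and Kit, and the 3 genes nearest to the receptors with the largest and the smallest ratio. Ligands and markers listed at 0 or under the minimum, Il6 among them, were named after their values were seen. So were Fcgr2b and the highly expressed markers Elane and Mpo. A few listed genes are not reported here. Positions came from GENCODE M21 (GRCm38), and symbols were matched by name. Promoters came from the RefSeq table of GRCm38.p6. The software was Python 3.11.15, numpy 2.4.6, pandas 2.3.3, scipy 1.17.1 and matplotlib 3.10.9.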

Additional observations from a re-analysis of the deposited data

How the results depend on the processing

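The log2 ratios of the 9 receptors kept their sign in all 54 recomputations, and 46 of these stayed within the counting interval. Without Rn45s in the library sizes the ratio was 0.93 for Csf3r, 0.25 for Csf2ra, 0.68 for Csf2rb, 0.35 for Ifngr1 and -1.16 for Il6st. After quantile normalization it was 0.86 for Csf3r, 0.69 for Csf2rb and 0.26 for Ifngr1. The number of receptors at least 2-fold higher was 0 in both of these settings. The number at least 2-fold lower was 2 (Il3ra and Il6st) without Rn45s and after centring on the median, and 1 (Il6st) with a pseudocount of 0.01 and with 4T1-GMP thinned to the depth of NTB-GMP. The median log2 ratio was 0.00076 with a pseudocount of 1, the only result to change sign. It was -0.63 without Rn45s and -0.47 over all genes above 0. In both settings Il1r1 passed the minimum and the median of 9 fell on Csf2rb2, while over the same 8 receptors the median without Rn45s was -0.19. With Csf2rb and Csf2rb2 left out of the sum, the share of Csf3r was 16.8% in NTB-GMP and 25.4% in 4T1-GMP. Of 88 alternative values, 69 stayed within the counting interval or within 1.5 times the count.

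No paired analysis was possible because neither group had a second library, and leaving out a library would leave nothing to compare. Depth limits Il1r1 most, with 64 and 103 reads, and limits any gene at 1 read in NTB-GMP. Counting intervals say nothing of the spread between mice, and differences in sorting or library preparation between the libraries cannot be told apart from the difference between groups.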
